A study of Mus musculus with 2116 samples.

Results

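Of 738 mouse spleen cells sorted as regulatory T cells (Treg) and sequenced to at least 1000 unique molecular identifiers (UMIs, each marking 1 captured mRNA molecule), 61 held no UMI of 18 genes of the Treg signature. The 61 cells were chosen by that absence. The 18 genes were Foxp3, the lineage-defining transcription factor, with Ikzf2 and Ikzf4 (Helios and Eos), the interleukin 2 receptor chains Il2ra and Il2rb, the inhibitory receptor Ctla4, the TNF receptor family members Tnfrsf18, Tnfrsf4 and Tnfrsf9, Nrp1, Gpr83, Lrrc32, Izumo1r, Socs2, Itgae, Klrg1, Capg and Cd81. The cells compared with them came from the same table of 2116 cells, 816 of them labelled Treg and 1300 labelled conventional CD4+ T cells (Tconv). These were counted with inDrops, a droplet method that tags the polyadenylated mRNA of each cell.

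Both populations came from male B6 Foxp3-Ires-Gfp mice aged 8 months, in which green fluorescent protein (GFP) follows transcription of Foxp3; no treatment or deletion is named. The sort is given as live TCRb+ CD4+ GFP+ cells for both, so the wording of the protocol does not separate them, and the series title calls Treg Foxp3+ and Tconv Foxp3-. Each population was 1 library and no animals are named, so no difference has a replicate check, no test was run, and library and population cannot be told apart.

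Regulatory T cells restrain the responses of other lymphocytes. They depend on Foxp3 and on interleukin 2, which conventional T cells make, and the naive-like ones in spleen share a circulation programme with naive conventional cells. The sort read a protein reporter, whereas the UMIs sample a small part of each cell's mRNA, so that a low-abundance transcript such as that of a transcription factor is often missed in a single cell.

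The share of cells with no signature UMI depended on depth. It was 8.27% in Treg (61 of 738; 95% exact binomial interval 6.38 to 10.5%), against 69.7% in Tconv (66.9 to 72.4%). Within Treg, the share was 10.1% at 1000 to under 1500 UMIs (22 cells), 10.1% at 1500 to under 2000 (27 cells), 5.42% at 2000 to under 3000 (11 cells) and 2% at 3000 or more (1 cell). After every cell was thinned to 1000 UMIs, 14.2% of Treg cells and 78.3% of Tconv cells had none. The 3 shallowest of the 61 cells held 1000, 1050 and 1071 UMIs; 5 further Treg cells with no signature UMI lay just under the depth limit, at 900 to under 1000 UMIs, of 18 Treg cells at that depth. On the other edge of the rule, 55 Treg cells held exactly 1 signature UMI, which was from Izumo1r in 18 of them and from Foxp3 in 6.

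**Figure D1:**
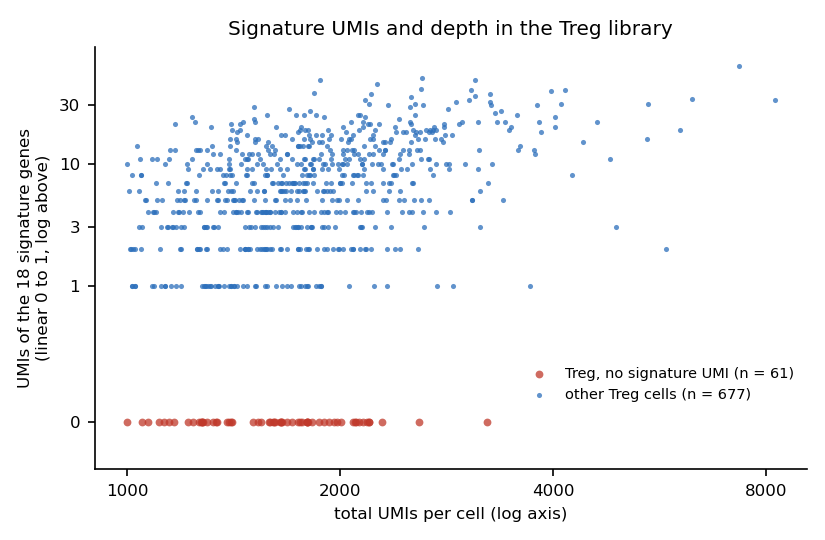
UMIs of the 18 signature genes (vertical axis, linear to 1 and logarithmic above) against total UMIs (logarithmic horizontal axis) for each Treg cell of at least 1000 UMIs. The 61 cells at 0 lie between 1000 and 3224 total UMIs, and cells above 3224 held at least 1 signature UMI.

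To compare like depths, each of the 61 cells was matched on total UMIs to 3 other Treg cells and to 3 Tconv cells of at least 1000 UMIs. The 61 cells held 101152 UMIs with a median of 1645 per cell, the matched other Treg cells held 302097 UMIs outside the 18 genes with a median total of 1647, and the matched Tconv cells held 302938 with a median total of 1646. Median mapped reads per UMI were 31.1, 31.3 in other Treg and 19.3 in Tconv, and ribosomal protein genes took 27% of UMIs in the 61 cells, 25.3% in other Treg and 32.1% in Tconv; the part of these library properties in the results was not tested. The matched other Treg cells had a median of 7 signature UMIs, and the matched Tconv cells a median of 0. The libraries shared 12 barcode index pairs, 1 of them in the 61 cells. The doublet caller marked none of the 61 cells, 5 of the matched other Treg cells and 2 of the matched Tconv cells.

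Levels are given as counts per 1000000 UMIs (CPM), that is UMIs per 1000000 UMIs outside the 18 genes, and differences as log2 ratios of CPM with 95% exact intervals. These cover counting error only and are too narrow. Of the detections of 1731 genes in the 61 cells, 31.6% came with 2 UMIs or more from the same cell, where independent UMIs would give 12.9%; the shares were 32.4% against 12% in other Treg and 24.5% against 11.6% in Tconv. The number of cells behind a sum is therefore given for many single genes, but not for every list sum. Genes that vary together with the 18 genes across Treg cells are not independent of the choice of cells, and every difference below is a description.

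The label of a T cell went against the mRNA of some of the 61. In 5 cells many UMIs came from 12 genes of B cells and antigen presentation: the first held 5.55% of its UMIs in this list, and the next 4 held 72, 45, 42 and 26 UMIs of it. The 5 cells held 0, 0, 1, 0 and 2 UMIs of 16 T lineage genes, in the same order. The first 4 held Cd79a, a signalling chain of the B cell receptor, at 26, 8, 2 and 27 UMIs and no Cd4 UMI. Of these, the first 3 also held 26, 18 and 10 UMIs of Cd74, the invariant chain of MHC class II, and 23, 15 and 24 of H2-Eb1, a class II chain, whereas the cell with 27 Cd79a UMIs had 8 of Cd74 and none of H2-Eb1, H2-Aa or H2-Ab1. The fifth cell, the deepest of the 61 with 3224 UMIs, had no Cd79a. It held 27 UMIs of a list of plasmacytoid dendritic cell genes, among them 9 of Siglech and 6 of Cox6a2, with 17 of Irf8 and 18 of Bst2, a marker of these cells and an interferon-stimulated gene. It also held 11 UMIs of a myeloid list, 8 of them Tyrobp, a signalling adaptor. The sixth cell was set aside for 3 UMIs of Cd8b1, a CD8 chain; it had no Cd8a, 5 Cd4 UMIs and 12 T lineage UMIs.

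The gate names TCRb+ CD4+ cells, and B cell genes also occurred outside the 61 cells. Of the 13 Treg cells of at least 1000 UMIs that held 10 or more B cell list UMIs, 5 were among the 61 and 8 among the others. Those 8 held at least 30 B cell list UMIs and 1 to 5 signature UMIs, which came from Capg (5 cells), Cd81 (3 cells) and Ikzf2, Tnfrsf18 and Socs2 (1 cell each), with none from Foxp3, Il2ra, Ctla4 or Izumo1r. Of the 13, 9 had at most 1 T lineage UMI.

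**Figure D2:**
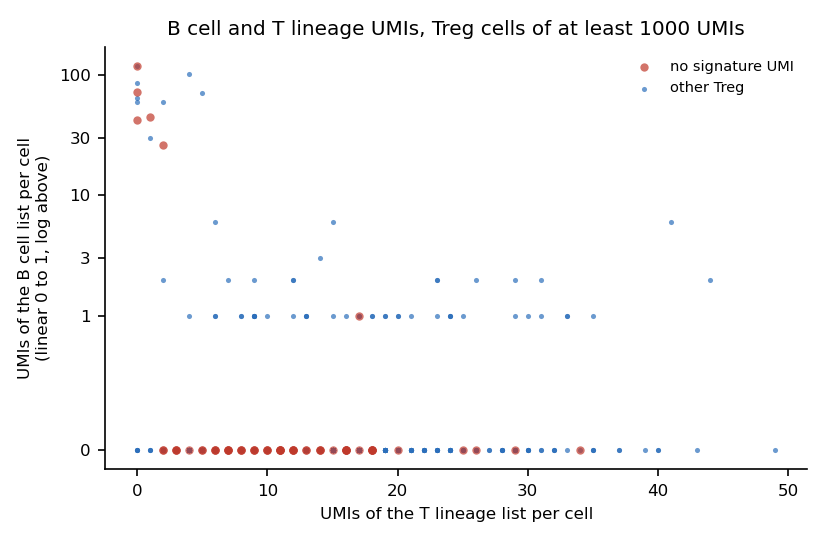
UMIs of the B cell list (vertical axis) against UMIs of the T lineage list (horizontal axis) for Treg cells of at least 1000 UMIs, with the 61 cells drawn over the others; cells with equal values overlap. Among the 61, the 5 cells with at least 26 B cell UMIs lie at 0 to 2 T lineage UMIs, and the rest lie at 0 or 1 B cell UMI.

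The remaining 55 cells carried T lineage mRNA at the level of T cells. Each held at least 2 UMIs of the 16 T lineage genes, with a median of 11 and a highest value of 34. Against 3 other Treg and 3 Tconv cells matched anew to each of them and likewise free of other markers, the list stood at 7511 CPM in the 55 cells, 6471 in other Treg and 7443 in Tconv. The log2 ratio was 0.22 (0.08 to 0.34) to other Treg and 0.01 (-0.12 to 0.14) to Tconv, whereas with the 6 cells included it was 0.07 and -0.14. Lck, the kinase of the T cell receptor, stood at 1308 CPM and was seen in 70.9% of the 55 cells, against 1053.98 CPM and 56.4% of other Treg and 1331 CPM and 69.1% of Tconv cells. Bcl11b, a transcription factor of T cell identity, stood at 936.1 CPM (83 UMIs in 23 cells), against 717.8 CPM in other Treg (74 cells) and 703.3 CPM in Tconv (82 cells). Cd4 was at 496.2 CPM (44 UMIs in 19 cells), against 502.4 CPM in other Treg and 823.7 CPM in Tconv. Of the 55 cells, 54 had no B cell list UMI and 1 had a single one, so B cell markers were near 0 in the values that follow. These are for the 55 cells against these matched cells unless the 61 are named.

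The 55 cells lay between other Treg and Tconv in genes associated with Treg that the rule had not used. A list of 42 such genes summed to 77 UMIs, or 868.4 CPM (685.3 to 1085), in the 55 cells, against 1896 CPM in other Treg and 470.1 CPM in Tconv. The log2 ratio was -1.13 (-1.49 to -0.78) to other Treg and 0.89 (0.46 to 1.31) to Tconv. Over the 61 cells it was -1.07 (-1.40 to -0.74) and 0.96 (0.56 to 1.35), and against Tconv cells that themselves had no signature UMI it was 1.23. The list was seen in 29 of the 55 cells, with at most 9 UMIs in a cell. This list and the list of Tconv genes below were chosen with earlier results of these data known. Their sums, and the shares of cells counted with them below, are therefore a description and no support for an intermediate level.

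Of the 42 genes, 7 had the 30 UMIs over both groups needed for a ratio to other Treg; 3 were at least 2-fold lower and none at least 2-fold higher, with a median log2 ratio of -0.86, against a median of -0.09 over all 1954 genes. Of those 1954 genes, 4.96% were at least 2-fold higher and 13.1% at least 2-fold lower. Over the 61 cells the shares of 2283 genes were 5.21% higher and 13.4% lower, and 2 of 6 measured list genes were at least 2-fold lower. No gene of the list reached 30 UMIs against Tconv. A gene could pass this minimum through the larger comparison group alone, as Coro2a did with 0 UMIs against 31. Counts of lower genes and list medians, here and below, are therefore a description and no support for a lower level. With 1 matched cell per member, 5.45% of genes were higher and 7.18% lower than in other Treg, over the 61 cells.

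Single genes of the list differed in pattern. Icos, a costimulatory receptor (chromosome 1, 60977927 to 61000320, plus strand, GRCm38), had 5 UMIs in 2 of the 55 cells, against 62 UMIs in 29 other Treg cells and 15 UMIs in 10 Tconv cells. Its log2 ratio was -2.05 (-3.73 to -0.75) to other Treg and -0.00 (-1.82 to 1.53) to Tconv. Coro2a, a coronin that binds actin (chromosome 4, 46536937 to 46602202, minus strand), had no UMI in the 55 cells, 31 UMIs in 18 other Treg cells and none in Tconv; with the 0 set to 3 counts, its log2 ratio to other Treg was -1.79 or lower. In the 61 cells it had 1 UMI. Rgs1, which shortens G protein signals, had 11 UMIs in the 55 cells, 9 of them in 1 cell, against 52 in 15 other Treg cells, 25 of them in 1 cell, and 0 in Tconv. Traf1, an adaptor of TNF receptor signalling, was spread over more cells, with 13 UMIs in 10 of the 55 cells, 30 in 20 other Treg cells and 13 in 9 Tconv cells. Its log2 ratio was 0.37 (-0.69 to 1.35) to other Treg and 1.58 (0.36 to 2.81) to Tconv. Tnfrsf1b, TNF receptor 2, had 7 UMIs in 3 cells, against 38 in 16 other Treg and 6 in 5 Tconv cells.

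The transcripts that mark conventional cells were likewise between the 2 groups, in the other direction. A list of 16 genes summed to 1895 CPM (1619 to 2204) in the 55 cells, against 1073 CPM in other Treg and 3528 CPM in Tconv. The log2 ratio was 0.82 (0.54 to 1.10) to other Treg and -0.90 (-1.14 to -0.66) to Tconv, and 0.84 and -0.96 over the 61 cells. Of 3 genes measured against other Treg, 2 were at least 2-fold higher, against 4.96% of all genes. Of 8 measured against Tconv, 4 were at least 2-fold lower and none at least 2-fold higher, with a median of -1.41, against 0.02 over all 1781 genes, of which 7.8% were at least 2-fold higher and 8.7% at least 2-fold lower. Some of the 8 passed the minimum almost wholly through Tconv, among them Tgfbr3 (2 UMIs against 28), Sgk1 (3 against 33) and Il7r (3 against 70). Over the 61 cells 8.33% of 2065 genes passed in each direction. With trimmed mean (TMM) factors in place of total UMIs the shares against Tconv were 4.65% higher and 13.1% lower, and the median of all genes moved by -0.25 on the log2 scale. With the total taken over genes other than ribosomal protein genes they were 6.63% higher and 10.1% lower, and the median moved by -0.10.

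Igfbp4, which encodes a binding protein of insulin-like growth factors (chromosome 11, 99041244 to 99054392, plus strand), had 21 UMIs in 10 of the 55 cells, against 27 UMIs in 14 other Treg cells; its level was 236.8 CPM in the 55 cells and 928.98 CPM in Tconv, where 83 cells held it. The log2 ratio was 1.22 (0.32 to 2.09) to other Treg and -1.97 (-2.69 to -1.33) to Tconv. Dapl1 had 16 UMIs in 6 cells, against 9 in 4 other Treg cells and 74 in 42 Tconv cells, a log2 ratio of 2.41 (1.14 to 3.77) and -0.63 (-1.50 to 0.17). Actn1, the cytoskeletal protein alpha-actinin, had 52 UMIs in 20 cells, against 68 in 31 other Treg cells, and was seen in 65 Tconv cells; at 586.5 CPM in the 55 cells it was above other Treg at 256.9 CPM and near Tconv at 492.7 CPM. Satb1, a chromatin organiser, was less far apart, with 699.2 CPM in the 55 cells, 570.4 in other Treg and 913.9 in Tconv. Not every gene of the list was intermediate. Il7r, the receptor for interleukin 7, had 3 UMIs in 3 of the 55 cells, against 21 in 10 other Treg cells and 70 in 41 Tconv cells, and its log2 ratios were -1.23 (-3.62 to 0.51) to other Treg and -2.96 (-5.27 to -1.35) to Tconv. Over the 61 cells it had 7 UMIs, and the ratios were -0.31 to other Treg and -1.88 to Tconv. Vipr1, a receptor for vasoactive intestinal peptide, had 5 UMIs in 3 cells and none in other Treg, at least 2.31 log2 units higher, against 29 in 18 Tconv cells.

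**Figure D3:**
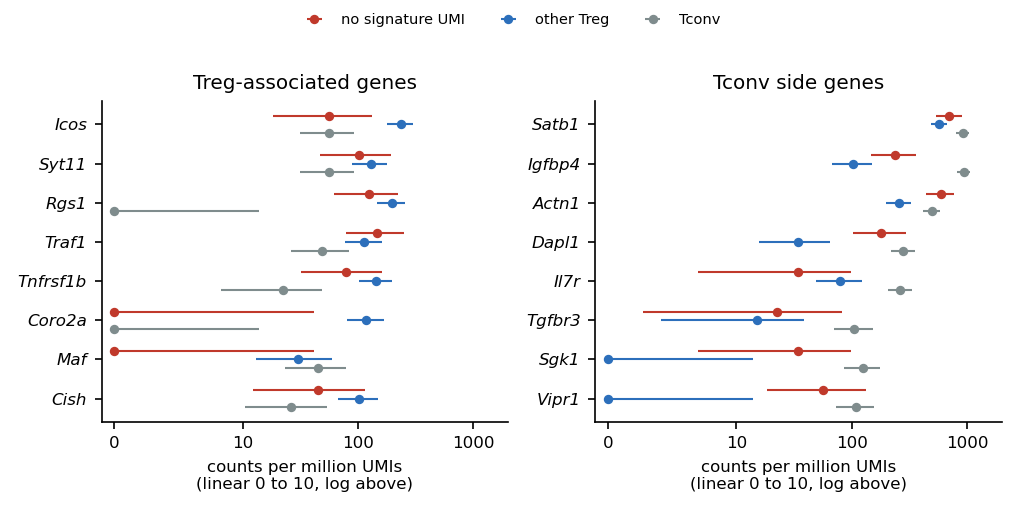
CPM (horizontal axis, linear to 10 and logarithmic above) of 8 Treg-associated genes outside the rule and of 8 genes of the Tconv side, in the 55 cells with no signature UMI and in the other Treg and Tconv cells matched to them; bars are 95% exact Poisson intervals. The 55 cells stand at 56.4 CPM of Icos, against 234.2 in other Treg and 56.4 in Tconv, and at 236.8 CPM of Igfbp4, below the 928.98 of Tconv.

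Both lists were also counted cell by cell, after thinning to 1000 UMIs. The intervals of these shares treat cells of the same library as independent, and the shares are a description. At least 1 UMI of the 42 Treg-associated genes was found in 43.6% of the 55 cells (24 cells, 30.3 to 57.7%). The share was 66.9% in other Treg and 31.2% in 1079 Tconv cells, and the interval of the 55 cells included the Tconv share. Before thinning, and so not at like depth, the shares were 52.7%, 80% and 42.6%. A UMI of the 16 Tconv side genes was found in 56.4% of the 55 cells (31 cells, 42.3 to 69.7%). The share was 42.7% in other Treg, which that interval included, and 88.2% in Tconv cells. Before thinning, again not at like depth, the shares were 69.1%, 55.3% and 94.1%. Igfbp4 was seen in 14.5% of the 55 cells (6.49 to 26.7%), 4.25% of other Treg and 38.4% of Tconv cells. Dapl1 was seen in 9.09% (3.02 to 19.9%), 1.10% of other Treg and 14.8% of Tconv cells.

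Cells of every class were found among the 55. Of them 11 (20%) held Treg-associated UMIs only, 13 (23.6%) both kinds, 18 (32.7%) Tconv side UMIs only and 13 (23.6%) neither. The same classes made up 39.4%, 27.6%, 15.1% and 18% of other Treg cells, and 5.19%, 26%, 62.2% and 6.58% of Tconv cells. The share with Tconv side UMIs only, with its interval of 20.7 to 46.7%, stood above that of other Treg and below that of Tconv. The interval treats cells of the same library as independent, and the lists were chosen with earlier results of these data known. The classes are therefore a description and no support for an intermediate level.

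**Figure D4:**
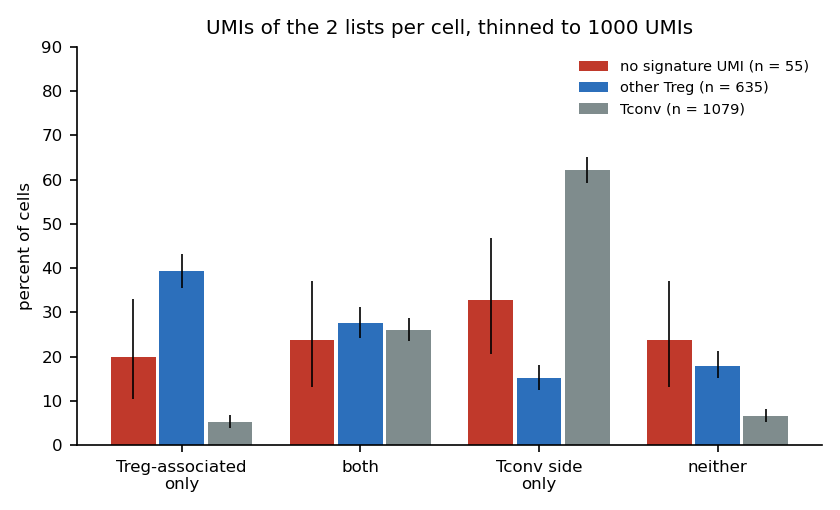
Percent of cells (vertical axis) that held UMIs of the Treg-associated list only, of both lists, of the Tconv side list only, or of neither, each cell thinned to 1000 UMIs; bars are 55 cells with no signature UMI, all other Treg and all Tconv cells of at least 1000 UMIs without other markers, with 95% exact binomial intervals. Cells with Tconv side UMIs only made up 32.7% of the 55 cells, 15.1% of other Treg and 62.2% of Tconv.

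Levels were also summed over genes at least 4-fold apart between all other Treg and all Tconv cells. The values of those 2 groups on these genes follow from the choice, and any further group tends to lie between them, so the sums are a description and no support for an intermediate level. The 110 genes higher in other Treg summed to 3068 CPM in the 55 cells (65 genes seen, led by Id3 with 22), against 6864 in other Treg and 1065.8 in Tconv. The 53 genes lower in other Treg summed to 1060 CPM in the 55 cells (94 UMIs, of which Igfbp4 gave 21 and Dapl1 16), against 313.7 in other Treg and 2725 in Tconv. Igfbp4 and Dapl1 are also members of the Tconv side list.

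Genes of resting and circulating T cells stood at like levels in the 3 groups: 16 genes summed to 4680 CPM in the 55 cells, 4801 in other Treg and 4743 in Tconv, with log2 ratios of -0.04 (-0.20 to 0.12) and -0.02 (-0.18 to 0.14). Of 14 measured against other Treg, 3 were at least 2-fold higher and none at least 2-fold lower, against 4.96% and 13.1% of all genes. Those 3, named after their values were seen, were Lef1, a transcription factor of naive T cells, with 21 UMIs against 22 in other Treg and 24 in Tconv, Atp1b1, a sodium pump subunit, with 26 against 32 and 40, and Als2cl with 27 against 33 and 62. Tcf7, which encodes the transcription factor TCF1, had 304.5 CPM in the 55 cells, 169.997 in other Treg and 274.6 in Tconv, with log2 ratios of 0.84 (0.10 to 1.56) and 0.15 (-0.54 to 0.80).

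Genes of effector and memory T cells were lower than in other Treg and close to Tconv. The 29 genes summed to 3113 CPM in the 55 cells, 4669 in other Treg and 3080 in Tconv. The log2 ratio was -0.59 (-0.78 to -0.40) to other Treg and 0.02 (-0.19 to 0.21) to Tconv; over the 61 cells the ratio to Tconv was 0.12, and -0.13 with TMM factors in place of total UMIs. In other Treg 1 cell held 85 UMIs of the list, against at most 24 in a cell of the 55. Of 12 genes measured against other Treg, 4 were at least 2-fold lower and none at least 2-fold higher, against 13.1% and 4.96% of all genes. In either size, 10 were lower and 2 higher, as were 55.5% and 44.5% of all genes. Ly6a had 55 UMIs in 19 cells, a log2 ratio of 0.19 (-0.29 to 0.65) to other Treg. Emp3 had 44 UMIs in 22 cells, a log2 ratio of -0.03 (-0.55 to 0.47). S100a6, a calcium-binding protein of activated T cells, stood at 78.9 CPM (7 UMIs in 2 of the 55 cells), against 385.3 CPM in other Treg (14 cells) and 48.9 CPM in Tconv (3 cells), so that a few cells carried it in every group. S100a10, the annexin partner of the same family, stood at 259.4 CPM in 18 cells, against 581.8 CPM in other Treg (80 cells) and 364.8 CPM in Tconv (64 cells), and its log2 ratio to other Treg was -1.17 (-1.87 to -0.53). Gata3, a transcription factor of type 2 T cells that Treg also use, had 10 UMIs in 8 cells, against 80 in 32 other Treg and 19 in 13 Tconv cells. Itgb1, an integrin chain, had 14 UMIs in 4 cells, 6 of them in 1, against 99 in 27 other Treg and 31 in 15 Tconv cells.

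Genes induced through the T cell receptor had a lower sum than in other Treg. The 18 genes summed to 710.5 CPM in the 55 cells, 1745 in other Treg and 865.045 in Tconv, with log2 ratios of -1.30 (-1.70 to -0.91) to other Treg and -0.28 (-0.71 to 0.12) to Tconv. Over the 61 cells the ratios were -0.99 and -0.06. Per cell, the median was 1 UMI of this list in the 55 cells and in the other Treg and Tconv cells matched to the 61. In other Treg 1 cell held 41 UMIs of it, against at most 10 in the 55 cells. Myc, the growth transcription factor, had 1 UMI in the 55 cells, against 69 UMIs in 10 other Treg cells and 45 UMIs in 16 Tconv cells, a log2 ratio of -4.53 (-9.85 to -2.00) and -3.91 (-9.24 to -1.36). Its UMIs were thus concentrated in few cells of the other groups. Dusp2, a nuclear phosphatase of MAP kinases, stood at 146.6 CPM (13 UMIs in 5 cells, 7 of them in 1), against 468.4 CPM in other Treg (31 cells) and 248.2 CPM in Tconv (23 cells). Nfkbia, an inhibitor of NF-kappaB, was seen in more cells, with 406.01 CPM in 21 of the 55 cells, 574.2 CPM in 63 other Treg cells and 274.6 CPM in 47 Tconv cells, and log2 ratios of -0.50 (-1.07 to 0.03) and 0.56 (-0.05 to 1.16).

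**Figure D5:**
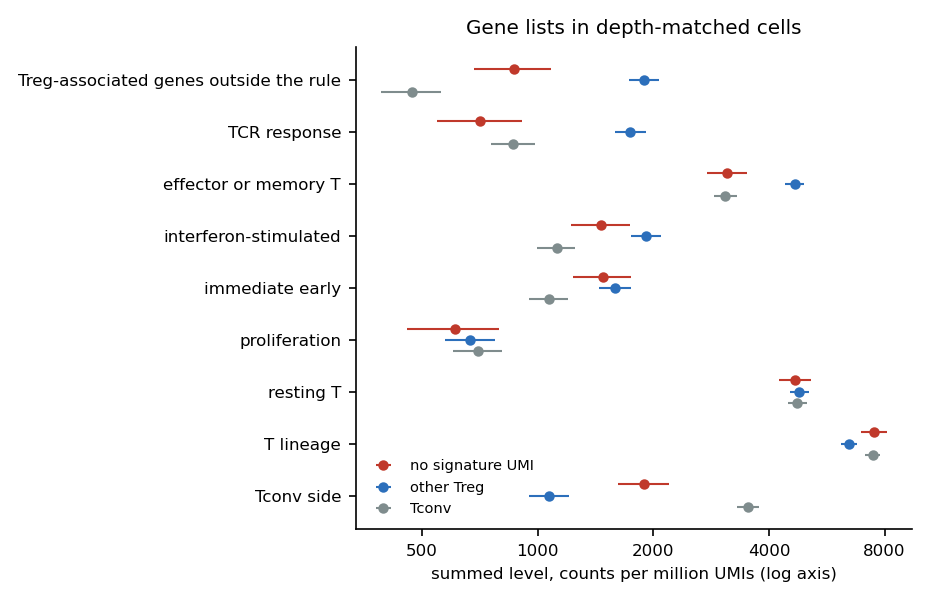
Summed CPM (logarithmic horizontal axis) of gene lists in the 55 cells with no signature UMI and in the other Treg and Tconv cells matched to them. Bars are 95% exact Poisson intervals. The Treg-associated list stands at 868.4 CPM in the 55 cells, against 1896 in other Treg and 470.1 in Tconv. The Tconv side list stands at 1895 CPM in the 55 cells, against 1073 in other Treg and 3528 in Tconv.

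Immediate early genes, which respond to activation and to tissue handling, summed to 1477 CPM in the 55 cells, 1590 in other Treg and 1068.1 in Tconv, with log2 ratios of -0.11 (-0.40 to 0.18) and 0.47 (0.16 to 0.77). Interferon-stimulated genes stood at 1466, 1919 in other Treg and 1121 in Tconv, with -0.39 (-0.68 to -0.11) and 0.39 (0.08 to 0.69). Among them Ifi27l2a gave 51 of the 130 UMIs in the 55 cells. It had 575.2 CPM in the 55 cells, 732.9 in other Treg and 312.2 in Tconv. Trim30a was below both groups, with 67.7 CPM (6 UMIs in 4 cells), 173.8 in other Treg and 150.4 in Tconv. Of 4 genes of the list measured against Tconv, 3 were higher and 1 lower, as were 50.4% and 49.6% of all genes. Proliferation genes stood at 609.01 CPM, 668.7 in other Treg and 699.6 in Tconv, and both intervals of the ratio spanned 0. Ribosomal protein genes took 28.2% of UMIs in the 55 cells, 25.4% in other Treg and 32.2% in Tconv. Of 79 measured, 64 were higher than in other Treg, as were 44.5% of all 1954 genes, and 70 were lower than in Tconv, as were 49.6% of all 1781 genes; over the 61 cells, TMM factors put the summed ratio to other Treg at -0.0101.

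Across all genes, those with the interval farthest above other Treg included, over the 61 cells, Plac8, Ddx58, Bst2, Cd79a, Chchd3, Khsrp, Fam53c, Smc3, Spcs3, Tiprl and Cd74. Several of them rested on the cells with other markers: without those cells Cd79a and Cd74 had no UMI, and Plac8 had 4 in 1 cell. Bst2 had 4 UMIs in 4 cells, a log2 ratio of -0.01 to other Treg and -0.12 to Tconv. Among the 55 cells, Thy1, a glycoprotein of the T cell surface (chromosome 9, 44043384 to 44048579, plus strand), had 91 UMIs in 25 cells (1026.3 CPM), against 411.8 CPM in other Treg (54 cells) and 898.9 CPM in Tconv (86 cells). Its log2 ratio was 1.32 (0.90 to 1.73) to other Treg and 0.19 (-0.17 to 0.55) to Tconv. One of the 55 cells held 20 of the 91 UMIs, and against all other Treg cells without matching the ratio over the 61 cells was 0.49. Arl4c, a small GTPase, stood at 597.7 CPM in 24 cells, against 237.995 CPM in 37 other Treg cells and 801.1 CPM in 94 Tconv cells, with ratios of 1.33 (0.77 to 1.88) and -0.42 (-0.88 to 0.02). Khsrp, an RNA-binding protein, had 41 UMIs in 9 cells (462.4 CPM), against 24 in 20 other Treg (90.7 CPM) and 57 in 29 Tconv cells (214.4 CPM). Its log2 ratio was 2.35 (1.59 to 3.14) to other Treg and 1.11 (0.49 to 1.71) to Tconv. Ddx58, the RNA sensor RIG-I, had 29 UMIs in 6 cells, 10 of them in 1, against 18 in 10 other Treg and 23 in 10 Tconv cells, and over the 61 cells its direction to Tconv turned in cells of at least 1500 UMIs (-0.0557). Fam53c had 21 UMIs in 4 cells.

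The 12 genes farthest below other Treg over the 61 cells were Myc, Ahcyl2, Rab8b, Tmem230, Hbp1, Rbm33, Ensa, Prps1, Ccdc6, Abhd12, Bcl2a1b and Lrrfip1. In the 55 cells Ahcyl2 had no UMI, against 52 in 24 other Treg cells and 11 in 8 Tconv cells, a log2 ratio of -2.54 or lower to other Treg. Rab8b, a small GTPase of vesicle transport, had 1 UMI, against 56 in 25 other Treg and 19 in 14 Tconv cells. Hbp1, a transcriptional repressor, had 2 UMIs, against 71 in 16 other Treg and 29 in 16 Tconv cells. Pdpk1, the kinase that activates AKT, had none, against 45 in 16 other Treg and 40 in 19 Tconv cells. Over the 61 cells it had 7 UMIs, all in 1 cell, and a log2 ratio of -0.74 (-2.16 to 0.45) to other Treg. Bmyc had 3 UMIs, against 65 in 25 other Treg and 9 in 6 Tconv cells; its log2 ratio to other Treg was -2.86, and -1.48 over the 61 cells, which held 9 UMIs.

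Against Tconv, the 12 genes farthest above over the 61 cells were Cd79a, H2-Aa, H2-Eb1, Plac8, Cd74, Gbp2, Ezh1, Dgcr2, Acss1, Zfx, Ahnak and 4932438A13Rik. Without the 6 cells H2-Aa had no UMI and H2-Eb1 had 1. Samhd1, a deoxynucleotide hydrolase (chromosome 2, 157097533 to 157135265, minus strand), had 81 UMIs in 29 of the 55 cells (913.5 CPM), against 948.2 CPM in other Treg (85 cells) and 82 UMIs in 48 Tconv cells (308.4 CPM). Its log2 ratio was 1.57 (1.11 to 2.03) to Tconv and -0.05 (-0.43 to 0.31) to other Treg. Gbp2, an interferon-induced GTPase, had 31 UMIs in 8 cells, 15 of them in 1, against 67 in 19 other Treg and 13 in 12 Tconv cells. Ezh1, a histone methyltransferase, had 22 UMIs in 5 cells, 8 of them in 1, against 23 in 9 other Treg and 9 in 3 Tconv cells, and its direction turned in cells of at least 1500 UMIs. Sesn1, a stress-induced regulator of growth signalling, had 33 UMIs in 10 cells, against 79 in 38 other Treg and 28 in 18 Tconv cells.

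The genes farthest below Tconv over the 61 cells included Jchain, Tm9sf2, Ensa, 1810058I24Rik, Myc, Slc20a1, Igfbp4, Emc6, Paics, Luc7l3 and Hnrnpr. Jchain, the joining chain of secreted antibody, had no UMI in the 61 cells, and all but 3 of its UMIs in the matched Tconv cells lay in 1 cell; the Tconv cells matched to the 55 held 3 Jchain UMIs in 2 cells. Tm9sf2, a membrane protein of endosomes, had no UMI in the 55 cells, against 19 in 9 other Treg and 43 in 17 Tconv cells, and 1810058I24Rik had none, against 24 in 13 other Treg and 34 in 23 Tconv cells.

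The cells just past the rule, 50 Treg cells with exactly 1 signature UMI and no other markers, were shallower, with a median of 1402.5 UMIs, against 1615 in the 55 cells. The Treg-associated list stood at 868.4 CPM (685.3 to 1085) in the 55 cells and 625.4 CPM (457.9 to 834.2) in the 50 cells. The Tconv side list stood at 1895 CPM (1619 to 2204) in the 55 cells and 1740 CPM (1452 to 2069) in the 50 cells. Effector genes stood at 3113 and 3168 CPM. Genes induced through the T cell receptor stood at 710.5 CPM (545.98 to 909.06) in the 55 cells and 1250.8 CPM (1008.3 to 1534) in the 50 cells. For 3 of these 4 lists the intervals of the 55 and the 50 cells overlapped.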

How the data were processed

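The deposited table holds raw UMI counts per gene and cell (23725 genes, 2116 cells), per the labels and the values; TopHat2, SAMtools and the mm10 build are named in the submitters' processing notes. Their roles and versions, the annotation and the cell filter, not given in the sources used here, could change which genes and cells were counted. Cells were grouped by their titles, read with the series title; 0 columns were left unused. In all, Treg cells held 1468203 UMIs, and Tconv cells 2002752.

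Members had at least 1000 UMIs and 0 UMIs of the 18 genes, which were left out of every total and comparison. Each was matched to 3 cells per group by optimal assignment on log total UMIs (scipy 1.17.1, numpy 2.4.6, pandas 2.3.3, Python 3.11.15). Intervals are exact Poisson for CPM, exact conditional for ratios and exact binomial for shares, at 95%. A group at 0 was set to 3 counts over the group, 29.7 CPM in the 61 cells, 9.93 in other Treg and 9.90 in Tconv. Genes needed 30 UMIs over both sides. The ratio and its interval were tested on simulated data. Doublets were called with scrublet in scanpy 1.11.5 and kept, and left out in an alternative. TMM factors came from edgeR 4.0.16 (R 4.3.3). Positions were looked up by symbol in GENCODE for GRCm38, which mm10 names too.

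Members and lists were chosen with earlier results of these data known. Named genes were the 12 per direction and comparison whose interval bound lay farthest from 1, the 8 most abundant of the Treg-associated, Tconv side, resting, effector and T lineage lists, 4 of every other list and 2 ribosomal ones; some are given only in counts, and some are not reported here. The same order without cells of other types was added after seeing the data. Cells held other markers at 3 or more UMIs of 1 list (B cell, plasma cell, myeloid, plasmacytoid dendritic, erythroid, CD8 or NK, gamma delta or NKT, platelet). Of the entries of the 18 lists, 13 were not in the table. In the 55 cells the other lists held 1 UMI of plasma cell, 6 of myeloid, 2 of plasmacytoid dendritic, 2 of erythroid, 5 of CD8 or NK, 1 of gamma delta or NKT and 0 of platelet genes.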

Additional observations from a re-analysis of the deposited data

How the results depend on the processing

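The direction of the Treg-associated list (-1.24 to -0.74 to other Treg, 0.70 to 1.30 to Tconv) and of the Tconv side list (0.64 to 1.03, -1.21 to -0.89) held under every alternative run: cell minimum, matching, thinning, scaling, cell weights, doublets, deep cells, cells of other types and single cells. Ratios below are log2, for the 61 cells.

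In cells of at least 1500 UMIs the Treg-associated list was at -0.74 to other Treg, and Ddx58 (-0.0557), Ezh1 (-0.74) and Rap1gds1 (-0.0428) to Tconv and Ezh1 (-2.23) to other Treg turned. At 500 UMIs the effector list was at -0.25 to other Treg and 0.33 to Tconv, and the B cell list at 1.78 to other Treg. With 1 matched cell, effector stood at -0.75 and B cell at 0.67 to other Treg, and B cell at 4.08 to Tconv. Without matching, resting T stood at 0.12 and B cell at 2.56 to other Treg, and B cell at 3.86 to Tconv. Thinned, effector stood at -0.70 and B cell at 2.37 to other Treg, and B cell at 3.86 to Tconv; the share of Treg cells with no signature UMI was 14.2%. Myeloid genes turned against Tconv without matching (-0.46) and thinned (-1.33).

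With TMM factors, values to Tconv were -1.21 for the Tconv side list, -0.28 for resting T and -0.13 for effector genes, and ribosomal genes stood at -0.0101 to other Treg. With equal cell weights, B cell stood at 1.24 to other Treg. Without cells of other types, B cell stood at -1.01 to other Treg and -0.000662 to Tconv, T lineage at 0.0131 to Tconv, plasmacytoid dendritic at -0.00703 to other Treg, and Bst2 at -0.00703 to other Treg and -0.12 to Tconv. Without the cell richest in the list, B cell stood at 0.81 to other Treg and 4.83 to Tconv, and plasmacytoid dendritic at -0.15 to other Treg. Without deep cells, B cell stood at 8.24 and plasma cell at 2.36 to Tconv.

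Genes at least 2-fold higher and lower made up 5.21% and 13.4% of those tested against other Treg, and 8.33% each against Tconv. Without matching the shares were 8.34% and 18.1% against other Treg, 12.8% and 13.7% against Tconv. With 1 matched cell they were 5.45% and 7.18%, and 6.86% and 5.07%. Thinned they were 8.31% and 17.1%, and 12.8% and 13.02%. With 10 UMIs as the minimum they were 11.2% and 18.996%, and 15.3% and 14.6%. With 1 UMI they were 13.96% and 11.8%, and 16.9% and 9.42%. With TMM factors they were 4.65% and 13.1% against Tconv, and at 1500 UMIs per cell 12.1% were lower against other Treg. Contrast genes chosen at 2-fold stood at -0.48 and 0.97 to other Treg, and at 8-fold at -1.55 for those higher there. The causes were not tested. Of 2856 named-gene values under alternatives, 2712 kept their direction and size. Depth limits single genes: 3 counts over the 61 cells are 29.7 CPM. No paired analysis was possible because each group is 1 library and the numbers in the titles only name cells.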
